A study of Mus musculus with 66 samples.

Results

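Cytosolic ribosomal proteins are encoded by genes named Rpl (large subunit) and Rps (small subunit). By symbol (Rpl or Rps, a number and at most a short ending, plus Rplp0, Rplp1, Rplp2 and Rpsa, without pseudogene symbols ending in -ps), 84 of the 24062 genes of the table were members. Of these, 77 were core genes, 46 of the large and 31 of the small subunit, and 7 were paralogues with an l after the number: Rpl3l, Rpl7l1, Rpl10l, Rpl22l1, Rpl39l, Rps4l and Rps27l. Poly(A) RNA of mouse female germ cells was sequenced in 66 libraries of 24 groups. All 9 ovarian groups, of 3 libraries each, came from mice carrying a stella-ECFP germ cell reporter on a C57BL/6 x B6D2F1 background. They were taken at embryonic days E14.5, E16.5 and E18.5 and at postnatal days P1, P3, P4 and P6, with small and large oocytes separated at P4 and P6. Another 9 groups, of 3 libraries each, were germ cells derived from wild-type embryonic stem cells (C57BL/6 X 129/SvJ) through primordial germ cell-like cells. These were cultured with fetal ovarian somatic cells and taken on culture days D5, D7, D9, D10 and D11, and later on D13, D15, D17 and D20. The last 6 groups, of 2 libraries each, were cultured oocytes of day 21 (D21): Foxo3dNES transgenic (Tg) or wild type (WT), each in hypoxia, in normoxia or with no oxygen condition given in the label. The transgene's promoter and the number of transgenic lines are not given in the sources used here. Whether libraries of a group came from separate litters or cultures is also not stated, so p-values measure the spread between these libraries, which may be technical.

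A ribosome holds about one copy of each ribosomal protein, and the messenger RNAs of these proteins start with a run of pyrimidines, the 5′ terminal oligopyrimidine (TOP) motif, through which mTOR signalling controls their translation as a group. A growing mouse oocyte builds up a large store of ribosomes and messenger RNA for the later embryo, while the small oocytes of primordial follicles stay dormant. Some ribosomal proteins have a paralogue that can take their place: Rpl10l and Rpl39l are best known from male germ cells of the mouse, where Rpl10l stands in for its X-linked namesake Rpl10 during meiosis, Rpl3l replaces Rpl3 in heart and skeletal muscle, and Rps27l is a target of p53. Rpl22l1 is a paralogue whose level Rpl22 holds down, and Rpl7l1 is found, in human cells, in precursors of the large subunit.

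The promoters below are those of 3 paralogues with their namesakes, and of 4 core genes that differed strongly from the rest of the family between small and large oocytes or in culture. These genes were picked after their expression had been seen. RefSeq (GRCm38.p6) promoter windows, from 250 bases before to 50 bases after a gene's start, were found for 63 of the 84 members. Each sequence runs from 60 bases before to 20 bases after the start, 5′ to 3′ on the gene's strand, and capitals mark CCGGAA or its reverse complement TTCCGG, the core of a site for ETS-family transcription factors. Rps27 lies at chr3:90213629-90213708 on the minus strand and Rps27l at chr9:66946026-66946105 on the plus strand. Rpl39 lies at chrX:37085203-37085282 on the minus strand and Rpl39l at chr16:10170168-10170247 on the plus strand. Rpl10 lies at chrX:74270756-74270835 on the plus strand and Rpl10l at chr12:66284382-66284461 on the minus strand. Rps3a1 at chr3:86142649-86142728, Rpl13a at chr7:45128726-45128805, Rps13 at chr7:116334171-116334250 and Rps15a at chr7:118116128-118116207 are all on the minus strand.
Rps27: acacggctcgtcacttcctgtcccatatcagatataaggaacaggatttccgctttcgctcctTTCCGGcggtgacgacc
Rps27l: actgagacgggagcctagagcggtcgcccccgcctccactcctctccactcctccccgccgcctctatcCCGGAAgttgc
Rpl39: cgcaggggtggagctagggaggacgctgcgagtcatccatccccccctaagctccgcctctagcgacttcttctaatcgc
Rpl39l: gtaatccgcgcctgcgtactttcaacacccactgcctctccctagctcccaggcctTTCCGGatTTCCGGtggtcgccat
Rpl10: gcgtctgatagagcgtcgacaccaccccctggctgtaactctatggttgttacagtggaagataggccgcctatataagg
Rpl10l: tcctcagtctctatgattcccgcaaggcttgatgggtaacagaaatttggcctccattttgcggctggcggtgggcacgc
Rps3a1: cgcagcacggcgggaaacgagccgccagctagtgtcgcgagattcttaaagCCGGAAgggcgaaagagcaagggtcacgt
Rpl13a: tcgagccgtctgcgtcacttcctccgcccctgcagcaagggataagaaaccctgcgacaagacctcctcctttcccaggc
Rps13: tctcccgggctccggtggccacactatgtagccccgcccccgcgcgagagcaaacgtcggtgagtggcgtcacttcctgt
Rps15a: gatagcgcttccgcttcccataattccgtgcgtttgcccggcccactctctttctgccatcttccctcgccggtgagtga

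Over the whole window, 24 of the 57 core genes with a promoter held CCGGAAG or its reverse complement CTTCCGG (42.1%), against 9.93% of the 27025 genes listed. The shorter CCGGAA or TTCCGG, which was added after the sequences had been seen, was in 32 of the 57 (56.1%), in 3 of the 6 paralogues with a window, and in 16.7% of all genes. It includes every match of the longer form. A run of at least 6 C or T letters within 10 bases of the start stood in 29 core genes (50.9%), against 23.0% of all genes. The starts are annotated ones and were not measured here, so this is not a count of genes with a TOP motif. TATAAA on the gene's strand was in 5 core genes (8.77%), against 9.77% of all genes. These 4 searches describe letters in the windows and show no binding.

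RPM values (a gene's reads per 1000000 assigned reads of its library) were compared on the log2(RPM + 1) scale. A gene was called where limma's p-value, adjusted by Benjamini-Hochberg over every gene tested, was under 0.05. An RPM is a share of a library, so a lower share and less RNA per cell cannot be told apart. Libraries held 4.84 to 23.2 M reads, and 3 reads, taken as the floor of detection, came to 0.129 to 0.619 RPM. The oocyte and germ cell markers Ddx4, Dazl, Dppa3, Figla, Gdf9, Zp3 and Sycp3 summed to 1939 RPM or more in every library. Granulosa markers (10 genes) summed to 296 to 606 RPM from D9 to D11 and to 11.3 to 118 RPM in ovarian groups. Stroma and theca markers (8 genes) summed to 94.9 to 1163 RPM from D9 to D11 and to 2.25 to 33.5 RPM in ovarian groups. Core transcripts were short, with a median of 729 bases against 2107 bases over the table, and the 289 other protein-coding genes of at most 700 bases are given below as a comparison for libraries that favour short transcripts. The Foxo3 RNA, which the transgene carries, was at 267 to 367 RPM in the 6 Tg libraries and at 44.8 to 128 RPM in the 6 WT libraries.

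All 77 core genes were expressed in every group, from a lowest group mean of 48.9 RPM to a highest of 3519 RPM. Their summed share of reads was 8.96%, 7.33% and 6.37% in the 3 libraries of E14.5, 6.34%, 7.10% and 6.78% at E16.5, 5.02%, 4.81% and 4.06% at E18.5, 4.55%, 5.16% and 5.07% at P1, and 5.91%, 5.53% and 5.42% at P3. Small oocytes held 5.48%, 6.10% and 5.32% at P4, against 2.28%, 1.80% and 2.22% in large oocytes of P4. At P6 the core share was 5.58%, 5.49% and 5.44% in small oocytes, against 1.495%, 1.55% and 1.41% in large oocytes. Small oocytes of P6 thus lay within the range of small P4 oocytes, and the large oocytes of both ages lay below every other ovarian library.

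In culture the core share was 8.04%, 18.1% and 8.89% on D5, 7.24%, 8.11% and 6.80% on D7, 7.09%, 6.02% and 6.63% on D9, 5.79%, 6.31% and 6.07% on D10, and 6.15%, 5.90% and 4.69% on D11. It was 4.21%, 4.29% and 3.97% on D13, 2.70%, 2.70% and 2.24% on D15, 1.84%, 2.10% and 1.87% on D17, and 1.16%, 1.60% and 1.26% on D20. The second D5 library stood apart, and its other short transcripts did too, at 3.39% of reads against 1.501% and 1.71% in the other D5 libraries. With the 24 groups ordered by mean share, 20 of the 23 neighbouring pairs overlapped. The lowest group was D20 for 68 of the 77 core genes and large P6 oocytes for the other 9, and the highest was D5 for 72. Between its highest and its lowest group a core gene differed by a factor of 3.33 (Rpl5, which carries the 5S rRNA into the ribosome) to 25.2 (Rps28), with a median of 9.89. For the 72 genes highest on D5, this factor rests in part on the second D5 library.

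**Figure D1:**
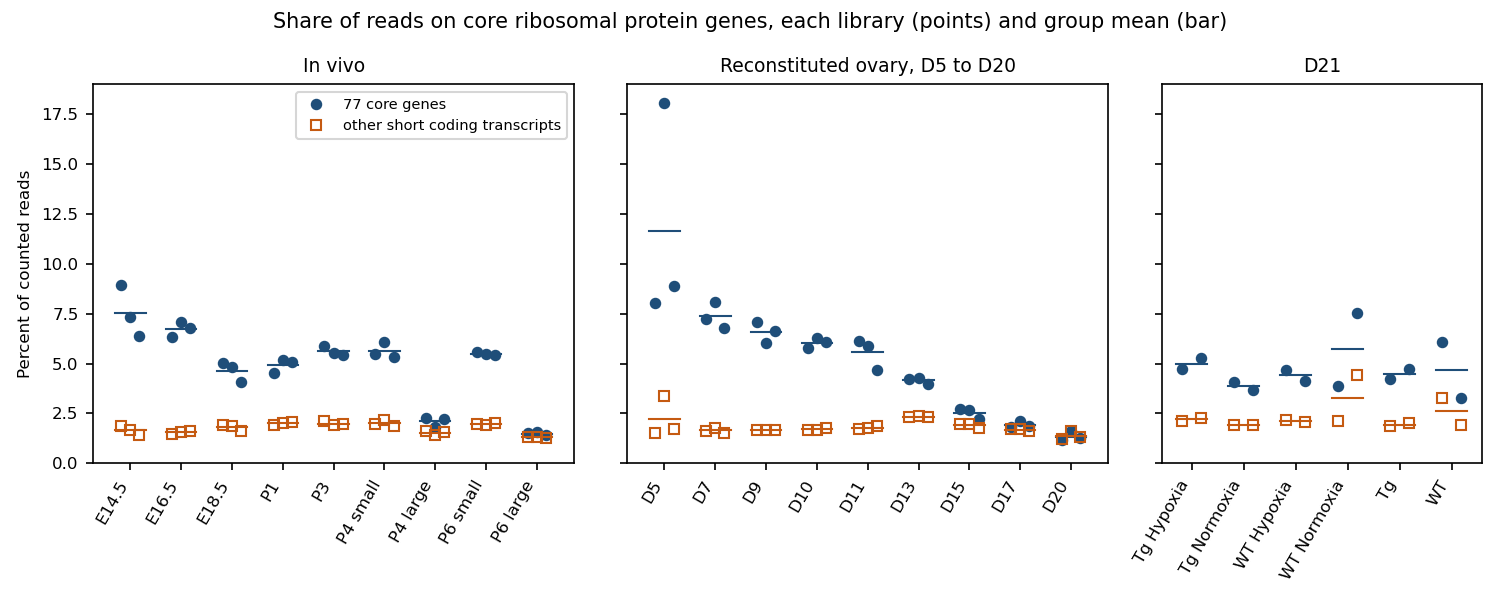
The summed share of reads of the 77 core ribosomal protein genes in percent (y axis) in each of the 66 libraries (points) by group (x axis), with bars for the group means, and that of other short coding transcripts (open squares). Large oocytes of P4 and P6 and culture days D15 to D20 lie below the other groups in the core share, and 1 D5 library stands at 18.1%.

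In fetal germ cells more core genes fell than rose between E14.5 and E16.5. At E16.5 against E14.5, 13 of the 77 core genes rose and 24 fell, where 42.7% of all 15401 genes tested rose and 24.6% fell; the median core change was -0.08 against 0.20 over all genes. After rescaling 3 rose and 42 fell, with a median of -0.32, and the percents of all genes above are those before rescaling. Without the first E14.5 library, which had the highest core share, the limma median before rescaling turned to 0.04. With all libraries edgeR and DESeq2 called 45 and 48 core genes lower. Rps20 rose most, with 1710, 1792 and 1791 RPM at E16.5 and 871, 844 and 643 RPM at E14.5 (log2 change 1.18 ± 0.13 SE, adjusted p = 1.5e-08 by limma). Rps2, a protein of the messenger RNA entry channel, fell most, with 1128, 1000 and 1193 RPM at E16.5 and 2820, 2238 and 2306 RPM at E14.5 (-1.14 ± 0.11, adjusted p = 1e-09). The groups did not overlap for either gene. Rps28 (0.63 ± 0.15) and Rps12 (0.55 ± 0.11) also rose, and Rpl24 (-1.10 ± 0.12) also fell. Set against the summed core RPM of each library, a scale described below, 24 core genes were higher and 21 lower, against 43% and 17.6% of all genes. Granulosa markers summed to 94.1 to 118 RPM at E16.5 against 26.1 to 34.7 RPM at E14.5, with 6 of 9 higher and 1 lower, and their part was not tested.

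From E16.5 to E18.5 the family fell nearly as a whole: 62 core genes were lower and 4 higher at E18.5, against 35.3% of all genes lower and 26.1% higher, and the median core change was -0.58 against -0.11 over all genes. Rps16 fell most, with 351, 353 and 294 RPM at E18.5 against 706, 886 and 753 RPM at E16.5 (-1.23 ± 0.13, adjusted p = 1.3e-08 by limma), followed by Rplp1, a protein of the stalk that binds elongation factors (-1.12 ± 0.11). Rpl41, the smallest ribosomal protein, went against the rest, with 803, 808 and 669 RPM at E18.5 against 436, 446 and 512 RPM at E16.5 (0.71 ± 0.14, adjusted p = 0.00012 by limma). Rpl24 (0.31 ± 0.12) and Rps3a1 (0.29 ± 0.11) were also higher at E18.5, and leaving out single libraries left 1 or 2 of the 4 higher calls in 4 of 6 cases. Against the core sum 24 were higher and 13 lower, against 43.5% and 14.2%, or 12 higher with only these groups in the fit, and Rpl41 stood out most (1.25 ± 0.09).

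After birth, when primordial follicles form, 33 core genes were higher and 4 lower at P3 than at E18.5, against 26% of all genes higher and 32.3% lower, with a median core change of 0.22 against -0.07. Rpl28 rose most, with 902, 1013 and 949 RPM at P3 against 493, 501 and 420 RPM at E18.5 (1.02 ± 0.13, adjusted p = 4.2e-07 by limma), and Rps4x (0.92 ± 0.13) followed. Rps28 fell, with 397, 304 and 379 RPM at P3 against 732, 661 and 541 RPM at E18.5 (-0.84 ± 0.15, adjusted p = 5.6e-05 by limma), as did Rpl9 (-0.57 ± 0.12) and Rpl27 (-0.49 ± 0.12). Against the core sum 18 were higher and 21 lower, against 15.7% and 41.3% of all genes. In the same comparison 5 of 9 granulosa, 4 of 7 stroma and theca and 3 of 4 endothelial markers were lower at P3 and none was higher, by limma; granulosa markers summed to 13.6 to 31.4 RPM at P3 against 41.8 to 74.0 RPM at E18.5, and their part was not tested.

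The widest separation in the ovary was between oocytes that stayed small and those that grew. At P4 all 77 core genes were higher in small than in large oocytes, against 48.7% of all genes, with a median log2 difference of 1.48 against 0.34 over all genes. At P6 all 77 were again higher in small oocytes, against 51.3% of all genes higher and 22.1% lower, with a median of 1.95 against 0.41, and Fau, Rpl36al and Gnb2l1, ribosomal genes named outside the rule, were higher as well. After rescaling by the median of gene ratios, which set the all-gene median to about 0, the core median was 1.005 at P4 and 1.34 at P6, with 72 and 75 core genes higher in small oocytes. The percents of all genes above are those before rescaling. Other short transcripts had a median of 0.63 at P6 before rescaling. Of the 10 granulosa markers, the sum was 11.3 to 21.7 RPM in small and 62.9 to 70.2 RPM in large oocytes of P6, and the 8 stroma and theca markers summed to 8.07 to 22.4 RPM in small and 2.27 to 3.405 RPM in large oocytes. Of the 9 granulosa markers tested, 3 were higher in small oocytes of P6 (Amhr2, Inha and Wnt4) and 1, Nr5a2, was lower (-3.82 ± 0.32), with a median of 0.68, so the sum and the list's median differ in sign. At P4 6 were higher and 1 lower, with a median of 0.90. Krt19 was at 0 in all 3 large P6 libraries, and the part of other cells in the result was not tested.

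**Figure D2:**
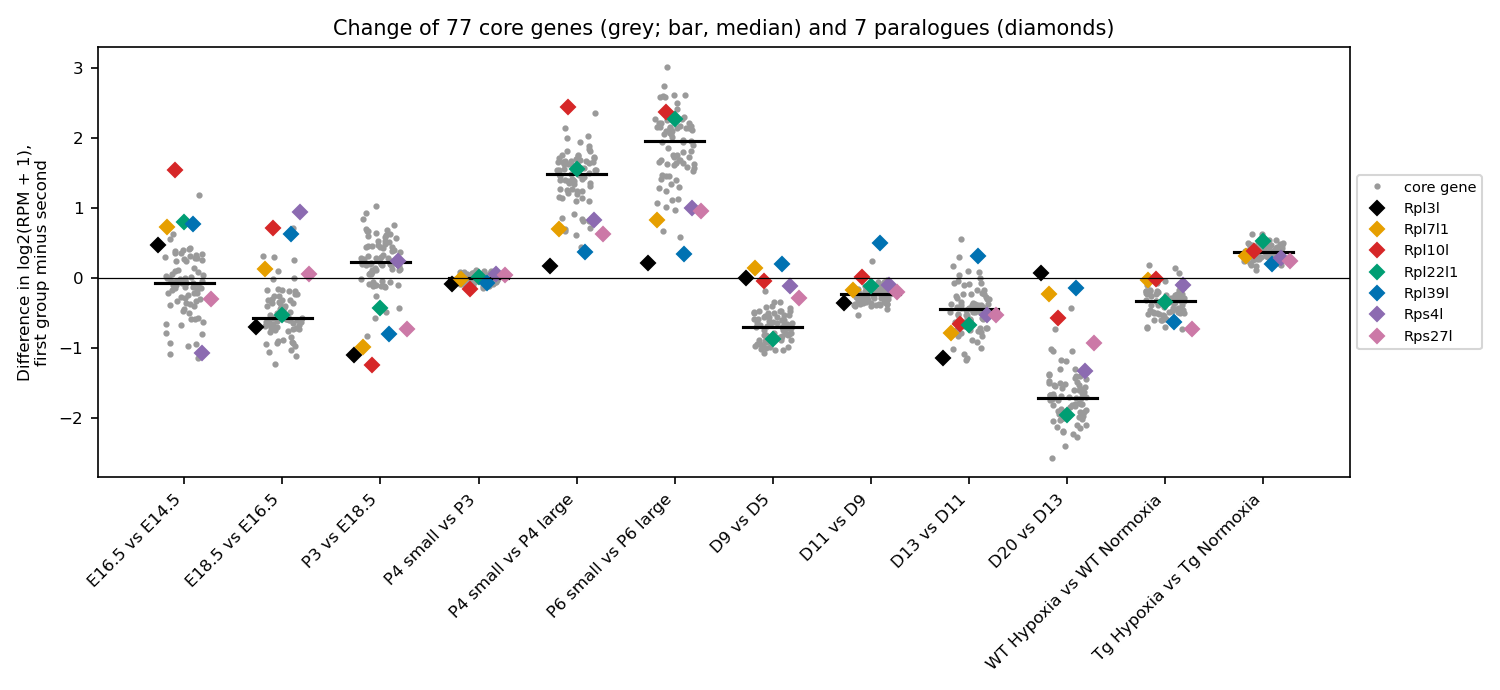
Difference in log2(RPM + 1), first group minus second (y axis), in the main comparisons (x axis), with a grey point for each of the 77 core genes, a bar at their median and a coloured diamond for each of the 7 paralogues that was tested. All core genes lie above 0 in small against large oocytes of P4 and P6, and all lie below 0 at D20 against D13.

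Single genes show the size of the difference between small and large oocytes. Rplp0, the base of the ribosomal stalk, had 987, 894 and 917 RPM in small against 345, 377 and 342 RPM in large oocytes of P6. Rps6, the small-subunit protein that S6 kinase phosphorylates, had 944, 884 and 887 RPM in small against 221, 252 and 227 RPM in large oocytes. Rpsa, also known as the laminin receptor precursor, had 1553, 1583 and 1692 RPM in small against 344, 342 and 311 RPM in large oocytes. None of these groups overlapped. The largest difference was that of Rps3a1, with 1051, 1090 and 1035 RPM in small against 137, 133 and 121 RPM in large oocytes (3.02 ± 0.11 SE, adjusted p = 1.5e-17 by limma). The smallest was that of Rps13, with 395, 371 and 373 RPM in small against 243, 271 and 248 RPM in large oocytes (0.58 ± 0.13, adjusted p = 0.00031 by limma); after rescaling its difference was -0.03, and -0.04 at P4, so its direction depends on the scale.

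Small oocytes of different ages gave no core call. No core gene was called between small P4 oocytes and P3 oocytes by limma, edgeR or DESeq2, none passed an unadjusted p of 0.05, and no gene of the 15401 was called (0% either way). Between small oocytes of P6 and P4 no core gene was called by these 3 tools, 9 passed an unadjusted p of 0.05, and 0.0455% of all genes were higher and 0.0844% lower. Large oocytes differed from P3 and with age. All 77 core genes were lower in large P4 oocytes than in P3 oocytes, against 48.9% of all genes, with a median of -1.497. From P4 to P6, 71 core genes fell further in large oocytes, against 14% of all genes lower and 4.6% higher, with a median of -0.51 against -0.08. With edgeR 45 were called lower, and leaving out single libraries gave 49 to 74 by limma. Rps3a1 (-0.84 ± 0.11), Rpl36a (-0.82 ± 0.14) and Rps27 (-0.80 ± 0.15) fell most. For Rps15a, Rpl5 and Rpl7a the change was -0.14 ± 0.13, -0.18 ± 0.08 and -0.26 ± 0.10, and the test was not passed.

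The gap between small and large oocytes was wider at P6 than at P4. In a test of that difference 28 core genes were called with a wider gap at P6 by limma, against 5.88% of all genes, and 0 with a narrower gap by limma, edgeR or DESeq2, against 2.64% by limma, with a median of 0.46 against 0.07, and 57 passed an unadjusted p of 0.05. Rps20 widened most (0.92 ± 0.18, adjusted p = 0.003 by limma), then Rpl12, which forms the base of the stalk (0.87 ± 0.14), and Rps3 (0.87 ± 0.16). The count was 7 with edgeR, 11 with DESeq2 and 9 after rescaling. It fell to 8 without replicate 1 and 11 without replicate 3 of large P4 oocytes and grew to 45 without their replicate 2, which had the lowest core share of its group. It was 14 without replicate 1 or 3 of small P4 oocytes, 13 without replicate 3 of large P6 oocytes, and 15 and 17 without replicates 1 and 2 of small P6 oocytes.

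Because the whole family moved, each gene was also set against it, by dividing every library by its summed core RPM. This scale centres the core genes near 0 by construction and shows only which of them moved more or less than the rest. On it, 32 core genes were higher and 27 lower in small than in large oocytes of P6, against 10.4% of all genes higher and 66.8% lower. At P4 27 were higher and 20 lower, against 9.43% and 62.2%. Rps3a1 was highest in small oocytes of P6 (1.13 ± 0.08 relative to the core sum, adjusted p = 1.5e-12 by limma), then Rps27 (0.86 ± 0.10) and Rps3, a protein of the messenger RNA entry channel (0.73 ± 0.09). Rps13 (-1.31 ± 0.09, adjusted p = 1.5e-13 by limma), Rps15a (-1.21 ± 0.12) and Rpl7a (-0.92 ± 0.08) were lowest, so large oocytes had more of these 3 for their total of core RNA. The small-minus-large differences at P6 and at P4, which share no library, had a Pearson r of 0.93 and a Spearman rho of 0.91 over the 77 core genes, given as a description since genes of a library share its depth and sum. With transcript length the P6 differences had a rho of 0.12.

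The balance of the subunits differed too. The large subunit made up 57.1% to 57.4% of core reads in small and 61.7% to 61.8% in large oocytes of P6. In culture it was 59.2% to 59.7% on D13 and 62.7% to 62.8% on D20. Relative to the core sum, 17 of the 31 small-subunit genes were higher in small P6 oocytes and 6 lower, with a median of 0.25, while 15 of the 46 large-subunit genes were higher and 21 lower, with a median of -0.16. The difference between the subunits was not tested.

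**Figure D3:**
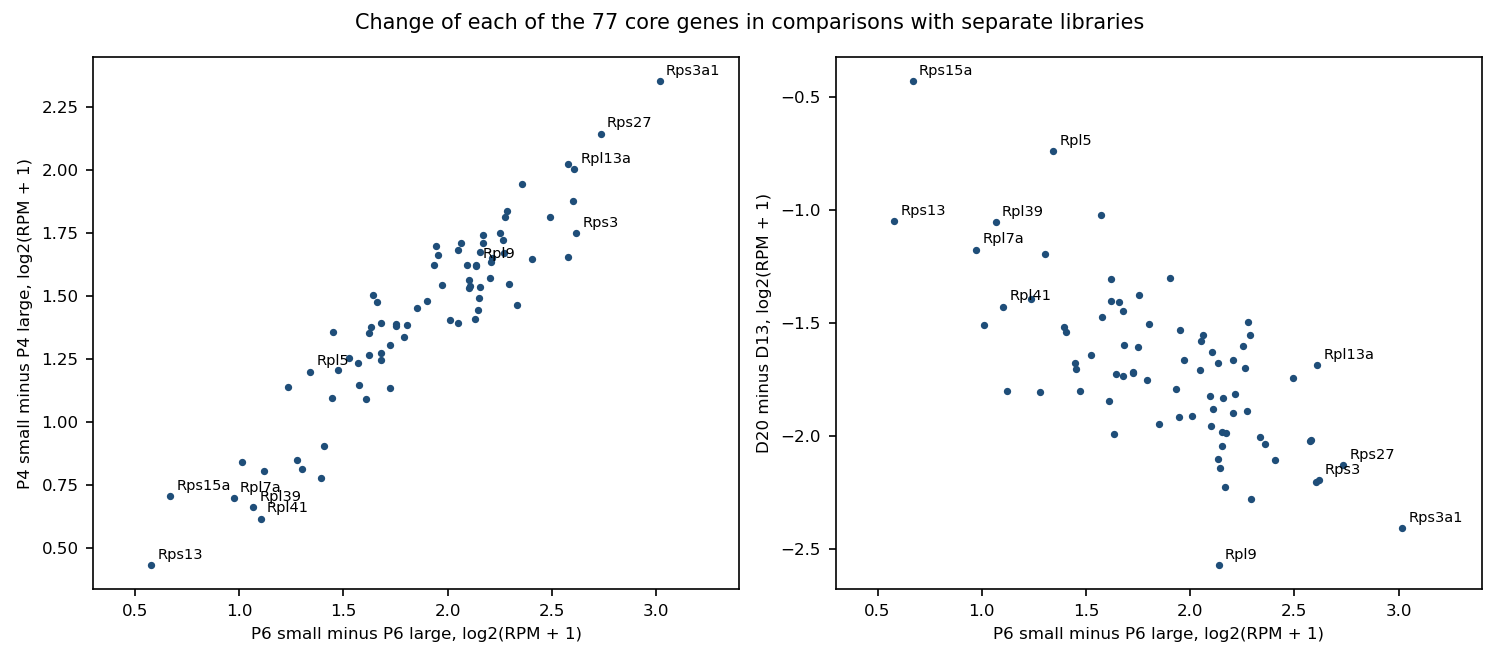
Difference in log2(RPM + 1) of small minus large oocytes of P6 (x axes) for each of the 77 core genes (points), against that of small minus large oocytes of P4 (left) and of D20 minus D13 (right). Rps3a1 lies at the high end of the x axes and low at D20, and Rps13 and Rps15a lie at the opposite end.

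Core genes were also lower late in culture. At D20, 76 of the 77 core genes were lower than at D13, against 25.5% of all genes lower and 20.6% higher, with a median of -1.72 against -0.05. The exception was Rps15a, with 146, 132 and 157 RPM at D20 against 181, 213 and 193 RPM at D13 (-0.43 ± 0.19, adjusted p = 0.072 by limma). Rpl9 fell most, with 37.5, 62.5 and 46.9 RPM at D20 against 306, 308 and 259 RPM at D13 (-2.57 ± 0.21, adjusted p = 7.8e-10 by limma), followed by Rps3a1 (-2.41 ± 0.17) and Rpl37a (-2.28 ± 0.22). Rpl5 (-0.74 ± 0.15) and Rpl17 (-1.02 ± 0.20) fell least among the genes called. Relative to the core sum, 10 genes were higher and 23 lower at D20, against 69.7% and 2.35% of all genes, and leaving out single libraries gave 7 to 9 higher and 17 to 20 lower.

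The gene-wise changes of small against large P6 oocytes and of D20 against D13, which share no library, had a Pearson r of -0.71 and a Spearman rho of -0.66 over the 77 core genes on the log2(RPM + 1) scale, again as a description. A negative sign means the same sense here, since growing oocytes stand second in the one difference and first in the other. Picked after these values were seen, 7 genes kept more of their level than the core sum in all 3 comparisons of growth (P4, P6 and culture): Rps13, Rps15a, Rpl5, Rpl7a, Rpl17, Rpl35 and Rpl39. The other sense held for 12: Rps3a1, Rps3, Rps14, Rps19, Rps20, Rps27, Rps28, Rpl8, Rpl9, Rpl18, Rpl26 and Rpl36a. Of the 10 promoter stretches printed above, those of Rps3a1, Rps27, Rps27l and Rpl39l hold a capitalised motif and the other 6 hold none, and whether this goes with the changes was not tested.

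Earlier steps in culture were less firm. At D9 61 core genes were lower than at D5, against 8.15% of all genes, with a median of -0.71; without the second D5 library 35 were lower and the median was -0.36, and with only these 2 groups in the fit 1 was lower. Somatic markers moved in the same step: granulosa markers summed to 307 to 492 RPM at D9 against 42.2 to 61.4 RPM at D5. Of the granulosa markers 9 of 10 were higher, and of the stroma and theca markers 7 of 7 tested, against 24.2% of all genes higher. The part of somatic cells was not tested. Rplp0 had 1604, 1338 and 1518 RPM at D9 against 1465, 2171 and 1515 RPM at D5 and was not called (-0.19 ± 0.17). Between D11 and D9 no core gene was called by limma, edgeR or DESeq2, 1 passed an unadjusted p of 0.05, and 5.48% of all genes were higher and 1.99% lower.

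At D13, 38 core genes were lower and 1 higher than at D11, against 50.7% and 19.8% of all genes, and the core median of -0.45 was near the all-gene median of -0.50. With edgeR, which rescales libraries, 3 core genes were lower and the median was 0.04. Far fewer core genes were also lower with DESeq2 and with limma after rescaling. The count thus depends on how libraries are scaled, and the sign of the median turned with edgeR. It falls where granulosa markers summed to 24.6 to 31.6 RPM at D13 against 296 to 603 RPM at D11; Amhr2 was at 0 in 2 and Fst in 2 of the 3 D13 libraries, and the part of somatic cells was not tested. Relative to the core sum, 11 genes were higher and 18 lower, against 24.6% and 32.6%, or 5 and 8 with only these groups in the fit. Rpl35 was the highest, with 958, 974 and 963 RPM at D13 against 593, 610 and 784 RPM at D11 (0.97 ± 0.17 relative to the core sum, adjusted p = 2.5e-05 by limma), and Rpl13a was the lowest, with 543, 562 and 500 RPM at D13 against 1590, 1327 and 829 RPM at D11 (-0.76 ± 0.13). Without replicate 1 of D11 or replicate 3 of D13 7 were higher, and without the second D11 library 11 were lower.

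Few core genes were called between cultured oocytes of D20 and large ovarian oocytes of P6, and strain, culture and age differ together between them and cannot be told apart. In a joint fit 1 of the 77 core genes was lower at D20, against 4.59% of all genes lower and 9.62% higher, with a median of -0.19 and 10 genes at an unadjusted p under 0.05. It was Rps14, with 122, 160 and 129 RPM at D20 against 193, 207 and 187 RPM in large oocytes (-0.52 ± 0.16, adjusted p = 0.024 by limma). The call was lost in 4 of 6 cases when a library was left out, and 8 genes were lower with only these 2 groups in the fit. Relative to the core sum, Rpl5 was higher at D20 (0.39 ± 0.10, adjusted p = 0.0068 by limma) and 2 genes were lower, Rps14 (-0.36 ± 0.10) among them, against 14.7% and 1.56% of all genes.

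Low oxygen and the Foxo3dNES transgene gave no called core gene by limma on D21. The core share was 4.73% and 5.27% in Tg hypoxia, 4.09% and 3.67% in Tg normoxia, 4.67% and 4.14% in WT hypoxia, and 3.90% and 7.54% in WT normoxia. In the groups with no oxygen label it was 4.21% and 4.74% in Tg and 6.06% and 3.29% in WT. The 2 libraries of WT normoxia differed most, and each of the other 5 groups overlapped their range. That pair also differed in other short transcripts, at 2.11% and 4.41% of reads, as did the WT pair with no oxygen label, at 3.28% and 1.93%.

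In WT oocytes the median core difference of hypoxia from normoxia was -0.33, against 0.14 over all genes, with 0 of 77 called (edgeR 0, DESeq2 5 lower, 0 at an unadjusted p under 0.05), where 15.9% of all genes were higher and 6.55% lower. Without the first WT normoxia library the median was -0.84, and without the second it was 0.15. Rps6 had 686 and 635 RPM in hypoxia against 626 and 986 RPM in normoxia, and Rplp0 had 915 and 846 RPM in hypoxia against 863 and 1173 RPM in normoxia. The groups overlapped for both genes. Granulosa markers summed to 28.3 and 36.9 RPM in WT hypoxia against 292 and 131 RPM in WT normoxia, and their part was not tested.

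In Tg oocytes the median core difference of hypoxia from normoxia was 0.37, against 0.07 over all genes. No core gene was called with all 12 libraries in the fit (edgeR 0, DESeq2 0, 0 at an unadjusted p under 0.05). In that fit 0.153% of all genes were higher and 0.869% lower, by limma. With only these 2 groups in the fit 62 core genes were higher, and the share of all genes called there is not given here. The all-library fit takes its spread from all 6 groups. Rpsa had 1404 and 1553 RPM in Tg hypoxia against 1170 and 1044 RPM in Tg normoxia, and Rps6 had 720 and 774 RPM in Tg hypoxia against 659 and 593 RPM in Tg normoxia. The groups did not overlap for either gene, with 2 libraries in each. The granulosa marker sum was 42.8 and 23.6 RPM in Tg hypoxia against 208 and 145 RPM in Tg normoxia.

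Tg against WT gave no core call by limma in normoxia (median -0.51; DESeq2 3 lower, edgeR 0, 0 at an unadjusted p under 0.05; 0.00695% of all genes higher, 0% lower), in hypoxia (0.18; 0 by all 3 tools and 0 unadjusted; 0.00695% and 0%) or without an oxygen label (-0.01; 0 by all 3 tools and 0 unadjusted; 6.25% and 0.605%). In the last of these, granulosa markers summed to 472 and 695 RPM in Tg and 279 and 229 RPM in WT, and their part was not tested. In normoxia the median was -1.05 without the first WT library and -0.03 without the second. The test of whether the oxygen difference depends on the transgene called no core gene (median 0.71, 0 by all 3 tools and 0 unadjusted, 0% of all genes). It also uses the WT normoxia pair, whose 2 libraries differed most. With 2 libraries a group these D21 values bound a family-wide shift only loosely: the standard errors of Rps27 and Rpl36a in Tg hypoxia against normoxia were 0.41 and 0.36 for differences of 0.63 and 0.62.

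The paralogues did not follow the core genes as one set. Rpl10l, on an autosome, peaked before birth, with 37.4, 32.1 and 28.9 RPM at E14.5, 103, 95.5 and 91.4 RPM at E16.5 and 176, 151 and 149 RPM at E18.5. It was higher at E16.5 than at E14.5 (1.54 ± 0.19) and at E18.5 than at E16.5 (0.71 ± 0.19, adjusted p = 0.0021 by limma), while its X-linked namesake Rpl10 stood at 638, 683 and 492 RPM at E18.5 against 884, 995 and 989 RPM at E16.5. Per kilobase of transcript, Rpl10l made up 2.61% ± 0.23 of the pair at E14.5, 17.2% ± 2.24 at E18.5 and 5.08% ± 0.83 at P3 (SD, n = 3 each). In oocytes of P6 it had 53.3, 57.0 and 47.7 RPM in small against 9.90, 9.06 and 9.18 RPM in large ones (2.37 ± 0.19, adjusted p = 2e-11 by limma), and it was still higher in small oocytes relative to the core sum (0.58 ± 0.19). In culture its libraries of D5 to D20 lay between 9.14 and 46.2 RPM, below all 3 of E16.5 and E18.5.

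Rpl39l also rose before birth but was not called between small and large oocytes of P6. It had 43.5, 38.7 and 23.9 RPM at E14.5, 65.3, 50.04 and 62.4 RPM at E16.5 and 103, 91.9 and 79.4 RPM at E18.5, and both steps were called (0.76 ± 0.18 at E16.5 and 0.62 ± 0.18 at E18.5). Its share of the pair with Rpl39, a protein lining the exit tunnel of the ribosome, was 34.4% ± 3.08 per kilobase at E18.5 against 6.71% ± 0.35 at E14.5. In small P6 oocytes it had 48.2, 45.9 and 36.0 RPM against 31.1, 33.2 and 37.2 RPM in large ones, groups that overlapped, and the difference was not called (0.34 ± 0.18, adjusted p = 0.097 by limma). Rpl39l was lower in small oocytes relative to the core sum (-1.51 ± 0.16, adjusted p = 2.2e-09 by limma). In culture its share of the pair was 2.78% ± 0.74 on D5, 13.5% ± 2.53 on D13 and 22.3% ± 0.93 on D20.

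Rps27l made up more of its pair with Rps27 in large than in small oocytes. In P6 oocytes Rps27l had 117, 112 and 116 RPM in small against 59.7, 63.8 and 52.9 RPM in large ones (0.96 ± 0.10, adjusted p = 2.9e-09 by limma), and Rps27 had 551, 598 and 563 RPM in small against 88.3, 86.1 and 80.2 RPM in large ones (2.74 ± 0.15). Rps27l made up 12.2% ± 0.68 of the pair per kilobase in small and 32.3% ± 1.36 in large oocytes, and 41.9% ± 1.74 on D20 against 23.9% ± 3.89 on D13. Relative to the core sum Rps27l was lower in small P6 oocytes (-0.91 ± 0.10) and higher at D20 than at D13 (0.70 ± 0.15), opposite to Rps27 in both cases.

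Rpl22l1 moved with the core genes, with 45.6, 46.3 and 44.5 RPM in small against 8.33, 9.32 and 8.33 RPM in large P6 oocytes (2.27 ± 0.15, adjusted p = 7.2e-13 by limma). Its namesake Rpl22 had 261, 250 and 234 RPM in small against 107, 106 and 102 RPM in large oocytes, and Rpl22l1 made up 13.6% ± 0.50 of the pair per kilobase in small and 6.63% ± 0.38 in large oocytes. Rpl7l1 had 74.4, 71.4 and 62.9 RPM in small against 38.4, 36.5 and 41.8 RPM in large P6 oocytes (0.82 ± 0.09), and was lower in small oocytes relative to the core sum (-1.04 ± 0.13). Rpl7l1 had its highest group mean at E18.5, with 149, 125 and 144 RPM, against 85.8, 76.0 and 69.5 RPM at E14.5. At D20 Rpl7l1 was not called against D13 (-0.24 ± 0.12, adjusted p = 0.12 by limma).

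Rps4l, a processed pseudogene in GENCODE and close in sequence to Rps4x, can share reads with it and its values are uncertain. It had 135, 123 and 169 RPM at E16.5 against 342, 284 and 271 RPM at E14.5 (-1.07 ± 0.10) and 276, 262 and 271 RPM at E18.5, higher than at E16.5 (0.93 ± 0.10, adjusted p = 2.9e-08 by limma), while Rps4x had 683, 702 and 544 RPM at E18.5 against 929, 1171 and 1090 RPM at E16.5. At D20 it was lower than in large P6 oocytes (-0.75 ± 0.14, adjusted p = 0.0001 by limma), the only paralogue called there. Rpl3l was highest at E16.5, with 2.43, 4.61 and 3.77 RPM, and had 0 reads in all 3 large P6 libraries and in all 3 D13 libraries, which allow up to 3 reads, at most 0.216 RPM in an ovarian and 0.204 RPM in a culture library. Rpl3, which sits at the peptidyl transferase centre, was at 970, 1175 and 1033 RPM at E16.5.

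**Figure D4:**
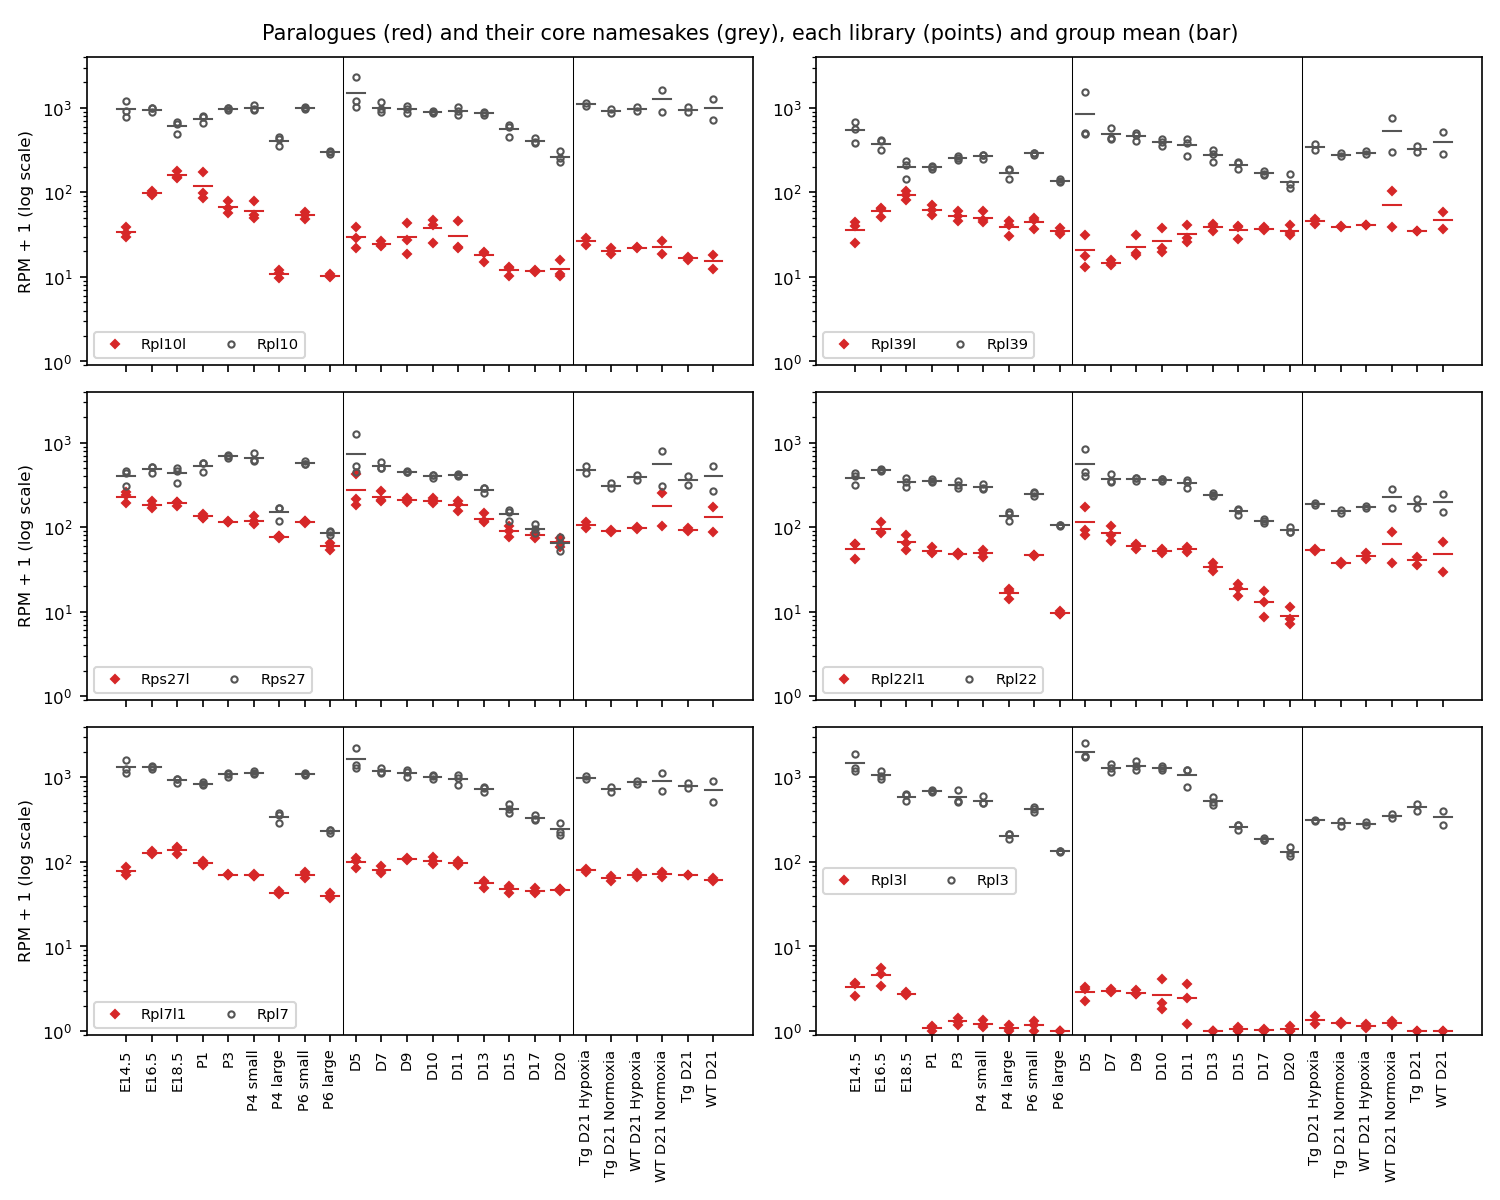
Level of 6 paralogues (red) and their namesakes (grey) as RPM + 1 on a log axis (y axes) by group (x axes), with a point per library and a bar at the group mean. Rpl10l and Rpl39l have their highest group means at E18.5, and Rpl3l is below 1 RPM in every ovarian group after birth and from D13 on.

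Among the core genes, 4 are on the X chromosome: Rpl10, Rpl36a, Rpl39 and Rps4x. They made up 5.33% to 5.72% of core reads at E14.5, 4.04% to 4.46% at E16.5, 3.45% to 4.06% at E18.5, 4.33% to 4.57% at P1 and 4.83% to 5.22% at P3. E18.5 lay below E14.5 and P3 without overlap. In culture the X-linked share was 4.33% to 5.26% from D5 to D11 and 5.06% to 5.39% from D13 to D20, and on D21 it was 5.22% to 6.04%. Much of the fall at E16.5 was that of Rps4x, which can share reads with the pseudogene Rps4l. Rps4x had 929, 1171 and 1090 RPM at E16.5 against 2519, 1890 and 1740 RPM at E14.5. The summed share does not show that each of the 4 genes fell.

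**Figure D5:**
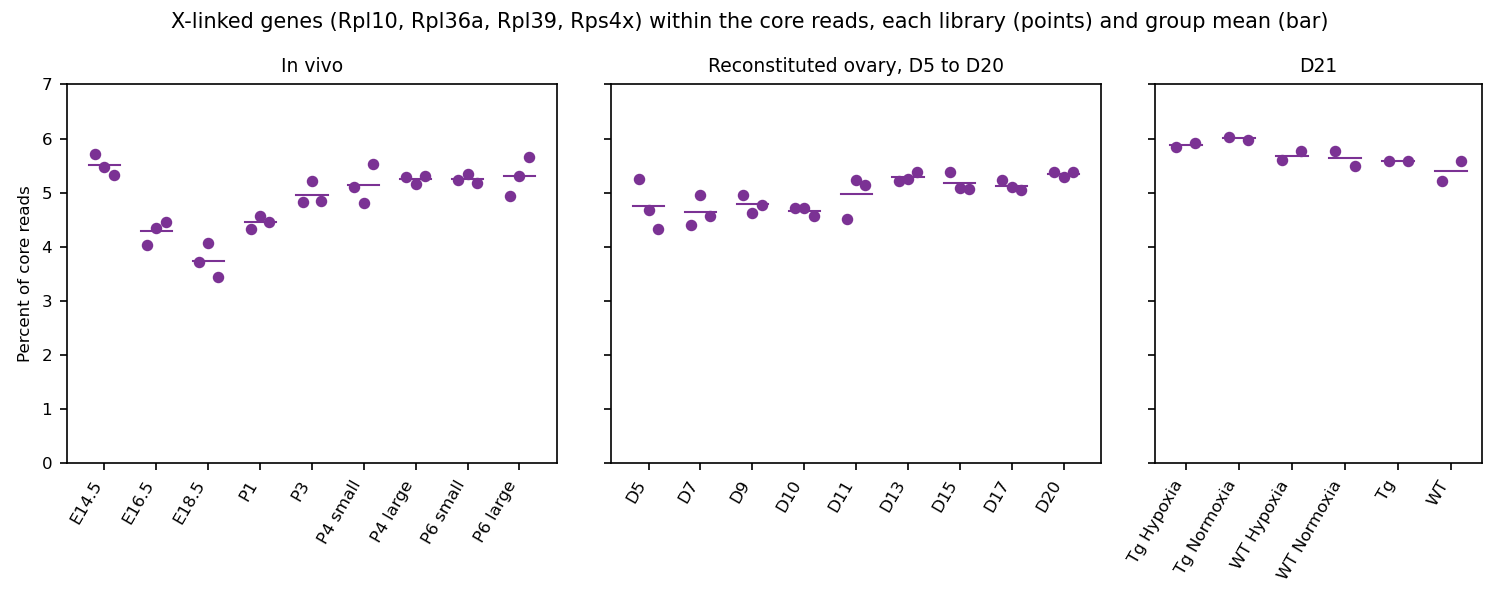
Share of the 4 X-linked genes in the reads of the 77 core genes, in percent, by library (points) and group, with bars at the group means. The ovarian groups dip at E16.5 and E18.5, where the E18.5 libraries lie between 3.45% and 4.06%, and the culture groups show no dip as deep.

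Other parts of the translation machinery had lower median differences than the core genes in small against large P6 oocytes. All 19 TOP messenger RNAs and translation factors listed were higher in small oocytes, with a median of 1.25. Among them Eef1g, Eef2 and Eef1b2, which serve elongation, differed by 2.98 ± 0.12, 2.77 ± 0.12 and 2.69 ± 0.12, and Npm1, a nucleolar chaperone, by 0.32 ± 0.11. Of 77 mitochondrial ribosomal protein genes 57 were higher and 7 lower (median 0.72), of 34 genes of RNA polymerase I and ribosome assembly 24 were higher and 2 lower (0.48), and of 38 proteasome genes 23 were higher and 5 lower (0.34), against 51.3% of all genes higher and 22.1% lower and the all-gene median of 0.41. After rescaling 12 of the 19 were higher and 2 lower, and the medians were 0.64 for the TOP list, 0.11 for the mitochondrial list, -0.12 for the polymerase I and assembly list and -0.22 for the proteasome, so the last pair changed sign. Of the 12 genes of TOP regulation, 5 were higher and 5 lower (median -0.02), and after rescaling 4 were higher and 8 lower (-0.62). Eif4ebp1, a repressor of cap-dependent translation that mTOR inhibits (2.48 ± 0.17), Tsc2, a brake on mTOR (1.77 ± 0.11), and Larp1, which binds TOP messenger RNAs (1.05 ± 0.10), were higher in small oocytes. Eif4e1b, an oocyte form of the cap-binding protein (-7.30 ± 0.30), Eif4ebp2, another repressor of cap-dependent translation (-0.60 ± 0.14), and Eif4e, the cap-binding protein (-0.30 ± 0.09), were lower.

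At D20 against D13 25.5% of all genes were lower and 20.6% higher. Of the 19 TOP messenger RNAs and translation factors 17 were lower and none higher by limma (median -0.98), with Npm1 (-0.18 ± 0.17) and Eif4b (-0.10 ± 0.11) not called. Eef1g fell by 2.36 on the log2 scale (SE 0.16) and Eif4ebp1 by 2.40 (SE 0.27). Of the mitochondrial list 42 of 77 were lower and 2 higher, with a median of -0.46. The proteasome list had 23 of 39 lower and 1 higher (-0.42), the polymerase I and assembly list 12 of 34 lower and 5 higher (-0.13), and the TOP regulation list 4 of 12 lower and 0 higher by limma (-0.16). After rescaling the medians of the polymerase I and assembly list and of the TOP regulation list were 0.07 and 0.03.

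Of the 8210 genes outside the rule with a mean of at least 20 RPM, those whose profile over the 24 groups was among the most like the mean of the core genes included Gm15772 (Pearson r 0.987), Gm12191 (0.985), Mir5121 (0.984), Gnb2l1 (0.983), Ier3ip1 (0.980), Eef1b2 (0.975), Eif3h (0.970), Rpl34-ps1 (0.970) and Mrps10 (0.966). Gm15772, Gm12191 and Rpl34-ps1 are processed pseudogenes in GENCODE and Mir5121 overlaps Rpl13a, so these 4 can take reads of ribosomal protein genes. Gnb2l1 (Rack1) is a protein of the small subunit outside the naming scheme.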

How the data were processed

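Poly(A) RNA of 66 mouse libraries was analysed from the authors' deposited RPM table (reads per 1000000 assigned reads). The submitters' processing notes name TopHat2, Bowtie2 2.0.13, featureCounts 1.5.1, R 3.4.4 and mm10; how reads matching several loci were treated is not given in the sources used here. This matters for ribosomal proteins: GENCODE M21 holds 300 gene names that start with Rpl or Rps and contain -ps, and the table holds 7 such symbols. Every value gave a whole read count within 0.01 (100% of values), so reads were recovered from RPM steps. Libraries held 13.9 to 23.2 M reads in the ovary, 14.7 to 22.8 M from D5 to D20, and 4.84 to 21.3 M on D21. Directional libraries were amplified by 12 PCR cycles, per the labels' protocols, without molecular identifiers, so floors cover counting error only. No 2 replicates agreed within sampling noise (chi-square per gene 3.42 to 229).

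Values were tested as log2(RPM + 1) with limma 3.58.1 in R 4.3.3 (trend, 1 mean per group, two-sided, genes of at least 1 RPM in a group mean of the fit), in 3 fits for the ovary, D5 to D20 and D21, and a joint fit for D20 against P6. A log2 difference on this scale understates changes of low genes. Alternatives were a pseudocount of 0.5, no filter, a filter of 5 RPM, median-of-ratios rescaling, edgeR 4.0.16 and DESeq2 1.42.0 on recovered reads, fits of only the groups compared, a replicate block and leaving out each library. The core-sum scale was checked against the alternatives for 7 of the 21 comparisons, chosen with results known. D20 against large P6 oocytes is not among these 7. The scripts' tests were checked on simulated data. Deviations of same-numbered replicates had a median correlation of -0.02 on D21, 0.01 from D5 to D20 and 0.004 in the ovary. The ranges were -0.45 to 0.20, -0.26 to 0.47 and -0.17 to 0.19. Replicates were not treated as pairs, though a median near 0 cannot exclude pairing between single groups.

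The members and all gene lists were chosen with earlier results of these data known. The genes named were the paralogues and their namesakes, Rplp0, Rps6 and Rpsa, and per comparison the 3 highest and 3 lowest core genes and up to 3 against the majority. The promoters printed, the shorter promoter motif, and the genes that recur in 3 comparisons were chosen after values or sequences had been seen, as were single genes of the related lists. Amino acid sequences were not used here. Some single genes that the rule for named genes selects are not reported here.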

Additional observations from a re-analysis of the deposited data

Results flagged for a closer look

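The difference between small and large oocytes was itself tested between P6 and P4, and 28 core genes had a wider gap at P6. Among the genes named here the added gap at P6, on the log2(RPM + 1) scale, was 0.92 for Rps20, 0.87 for Rpl12, 0.87 for Rps3, 0.62 for Rplp0, 0.60 for Rpsa, 0.50 for Rpl7 and 0.72 for the paralogue Rpl22l1. Rpl12 had 733, 671 and 710 RPM in small against 142, 142 and 133 RPM in large oocytes of P6, and 565, 636 and 616 RPM in small against 238, 183 and 241 RPM in large oocytes of P4. Large oocytes of P4 held granulosa markers of 43.0 to 53.8 RPM in sum and large oocytes of P6 of 62.9 to 70.2 RPM, though none of the 9 tested was called between these groups by limma (median 0.00), and the part of this in the difference was not tested.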

How the results depend on the processing

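Core genes are counted below. Percents of all genes called, given above, belong to limma fits with all libraries, before rescaling or relative to the core sum. None is given for the other settings. With DESeq2, edgeR and after rescaling, 11, 7 and 9 were called higher in the small-minus-large test of P6 against P4 (28 in the report), 48, 45 and 42 lower at E16.5 than at E14.5 (24), and 5, 3 and 5 lower at D13 than at D11 (38); 45 with edgeR and 40 after rescaling were lower in large oocytes of P6 than of P4 (71). DESeq2 called 3 lower in Tg than WT normoxia and 5 lower in WT hypoxia than normoxia (0 each). With only the groups compared in the fit, 49 were higher in the small-minus-large test, 62 in Tg hypoxia against normoxia (0), 8 lower at D20 than in large P6 oocytes (1), and 1 lower at D9 than D5 (61); relative to the core sum 12 were higher at E18.5 than E16.5 (24) and 5 higher and 8 lower at D13 than D11 (11 and 18).

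Leaving out each library gave 8 to 45 in the small-minus-large test, 35 to 76 lower at D9, 25 to 48 lower at D13 (25 without replicate 1 or 2 of D11), 0 to 2 lower at D20 than in large P6 oocytes, 0 to 61 lower in Tg than WT normoxia, 0 to 37 lower in WT hypoxia, and 0 to 21 higher in the test of oxygen by transgene; at D13 relative to the core sum it gave 7 to 12 higher and 11 to 18 lower. The 77 higher genes in small oocytes of P4 and P6, the 77 lower in large P4 oocytes than at P3 and the 76 lower at D20 than D13 stayed at those counts.

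Signs turned for small values. Under DESeq2 and after rescaling, Rps13 was at -0.0336 and -0.0396 in small against large oocytes of P4, at -0.0335 and -0.0322 at P6, and at 0.00894 and 0.00988 in large P4 oocytes against P3, where Rpl39l was at 0.0545 and 0.0466 (0.00407 with edgeR). At D13 against D11, under DESeq2, edgeR and rescaling, Rpl7 was at 0.0549, 0.112 and 0.0611, Rps4x at 0.0652, 0.124 and 0.0717, and Rpl22 at 0.0577 with edgeR and 0.00443 after rescaling, and the core median was 0.0365 with edgeR. Leaving out each library put the core median of E16.5 against E14.5 between -0.197 and 0.0377, the upper end without replicate 1 of E14.5. The cause was not tested. The replicate block moved no count of core genes by over 1.5 times, with 27 in the small-minus-large test and 67 lower at D9.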
